A study of Mus musculus and Homo sapiens with 26 samples.

Results

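The miR-30 family was followed in P19 cells, a mouse embryonic carcinoma line, by 10 mature strands, 5 from the 5p arm of their hairpins (mmu-miR-30a-5p, mmu-miR-30b-5p, mmu-miR-30c-5p, mmu-miR-30d-5p and mmu-miR-30e-5p) and 5 from the 3p arm (mmu-miR-30a-3p, mmu-miR-30b-3p, mmu-miR-30c-1-3p, mmu-miR-30d-3p and mmu-miR-30e-3p), written below without the species prefix. These are 10 of the 1396 miRNA names with values in the total RNA and AGO2 immunoprecipitation (AGO2 IP) tables. They were picked out by family name, with earlier results of these data known. Among the 1080 human names measured in HEK293T cells, 11 belong to the family, since miR-30c-2-3p is counted there too. The mouse miR-30c-2-3p is given beside the members because 2 hairpins, Mir30c-1 and Mir30c-2, make the same miR-30c-5p, and reads of that strand cannot be assigned to either of them.

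P19 cells came in 3 Dicer genotypes with 6 total RNA libraries each. WT carries Dicer (+/+). HetKO carries Dicer (+/-), made with CRISPR by a truncation in 1 allele. HM carries Dicer (HM/-), in which the other allele also holds the RNase IIIb hotspot change E1797G, so that HM and HetKO share the lost allele and HetKO is the control for it. Endogenous AGO2 was pulled down from 2 WT and 4 HM samples. HEK293T, a human embryonic kidney line, lacked its own Dicer (-/-) and was transfected with WT Dicer or with D1320A Dicer, 1 library each. HM was made from a clonal HetKO line, and the study's methods describe a clonal effect on other miRNAs in the HM line, so that genotype and clone cannot be told apart.

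A miRNA hairpin is cut by Dicer into a duplex of a 5p and a 3p strand, of which Argonaute keeps 1 as the guide and discards the other, the passenger. The RNase IIIa domain of Dicer cuts the 3p arm, and the RNase IIIb domain cuts the 5p arm. In the miR-30 family the 5p strand is the usual guide. All 5p members share a seed, the stretch of bases at the start of a miRNA that pairs with target mRNAs, and the family is known for its high level in heart and kidney and for restraining regulators of the epithelial to mesenchymal transition. The 3p strands fall into more than 1 seed group, so a change of guide strand changes the set of mRNAs that can be paired.

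RefSeq mature sequences (GRCm38.p6) were matched for 6 of the 10 members and for miR-30c-2-3p. They are printed 5′ to 3′ to show the seeds that a change of strand exchanges, with the seed (bases 2 to 8) in capitals.
miR-30a-5p: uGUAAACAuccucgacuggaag
miR-30e-5p: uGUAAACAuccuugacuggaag
miR-30c-5p: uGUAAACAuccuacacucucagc
miR-30a-3p: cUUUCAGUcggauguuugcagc
miR-30e-3p: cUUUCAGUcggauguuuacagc
miR-30c-1-3p: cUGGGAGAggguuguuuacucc
miR-30c-2-3p: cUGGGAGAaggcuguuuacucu

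The matched 5p strands shared the seed GUAAACA and began with U. The 3p strands began with C and formed 2 seed groups, UUUCAGU for miR-30a-3p and miR-30e-3p, and UGGGAGA for miR-30c-1-3p and miR-30c-2-3p. With positions counted from 1 at the 5′ end, miR-30a-3p and miR-30e-3p differed by G18A alone, and miR-30a-5p and miR-30e-5p by C13U alone, both outside the seed. The 3p strands of the miR-30c hairpins differed at 3 of 22 positions, G9A, U12C and C22U. In structures predicted by RNAfold from the RefSeq hairpins, all 4 bases at the 5′ end of each strand were paired in Mir30a and Mir30e, with 1 G-C pair at each end. In Mir30c-1 and Mir30c-2, 3 of the 4 bases were paired at the 5′ end of the 5p strand, with 1 G-C pair, and 4 of 4 at the 5′ end of the 3p strand, with 2 G-C pairs.

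The hairpins are not arranged by these groups. Mir30a lies at chr1:23272269-23272339 on the plus strand (GRCm38), between annotated genes, and Mir30c-2 lies 19361 bases further on at chr1:23291701-23291784, within an exon of the long noncoding RNA gene Gm27028. Mir30c-1 (chr4:120769534-120769622) and Mir30e (chr4:120772606-120772697) are 2983 bases apart on the minus strand, within 1 intron of Nfyc, which encodes a subunit of the transcription factor NF-Y. Mir30b and Mir30d are both on chromosome 15. Each of the first 2 loci thus pairs a hairpin with the 3p seed UUUCAGU with a hairpin with the 3p seed UGGGAGA.

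The total RNA libraries held from 1530466 to 3246326 reads and the AGO2 IP libraries from 4476845 to 5889717. Total RNA values are the authors' spike-in normalized signal, in which a level of 3 reads was at most 1.22, and AGO2 IP values are RPM, in which it was at most 0.655. Errors are SD over libraries. All 5 miRNAs chosen as markers of embryonic carcinoma (miR-291a-3p, miR-294-3p, miR-295-3p, miR-302b-3p and miR-302d-3p) were present in every group, with a summed signal of 73004 to 83080 in WT libraries, 64913 to 80921 in those of HetKO and 54747 to 78802 in those of HM. The 5 markers of liver, neuron, muscle and blood cells (miR-122-5p, miR-124-3p, miR-133a-3p, miR-142a-3p and miR-223-3p) summed to between 162 and 507 over the 18 libraries, with miR-223-3p near 0. In WT and in HetKO the libraries resembled each other by pairs of replicate numbers (1 with 4, 2 with 5 and 3 with 6), with a mean correlation of their deviations across miRNAs of 0.638 and 0.572, which was -0.0341 in HM, and the labels do not say why, so that p-values over 6 libraries may count fewer than 6 independent samples. All 10 members moved the same way in each of the 3 pairs in HM against WT and in HM against HetKO. Replicate 5 of HM held a summed signal of 9403 over all 5p-miRNAs, against 3976 to 5041 in the other HM libraries, and HM values of 5p strands are given with and without it.

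In WT cells the 5p strand led in every hairpin. The order of the 5p levels was miR-30e-5p (20694 ± 1111, SD, n = 6), miR-30a-5p (5000 ± 509), miR-30c-5p (2830 ± 575), miR-30d-5p (1306 ± 261) and miR-30b-5p (980.1 ± 95.3), where miR-30d-5p and miR-30b-5p overlapped between libraries and the other neighbours did not. The strands are 22 or 23 bases long where the sequence was matched, so these levels were compared without a correction for length. The order of the 3p levels was the same except that miR-30d-3p stood above miR-30c-1-3p, and those 2 overlapped.

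The 3p strands divided by their WT level. With a mean WT signal of at least 500 taken as well used, miR-30e-3p (1746 ± 242) and miR-30a-3p (881 ± 130, SD, n = 6) were well used, and miR-30d-3p (97.3 ± 14.5), miR-30c-1-3p (73.9 ± 19.2) and miR-30b-3p (37.1 ± 8.87) were rare passengers. The values nearest to the limit were the 881 of miR-30a-3p above it and the 97.3 of miR-30d-3p below it. The rare miR-30b-3p rested on 85 to 122 reads per library. By the share of 3p reads in the hairpin the division was less sharp: it was 14.9% ± 0.958 for miR-30a, 7.76% ± 0.709 for miR-30e, 7.05% ± 1.16 for miR-30d, 3.62% ± 0.614 for miR-30b and 2.57% ± 0.59 for miR-30c-1 (SD, n = 6 for each). The libraries of miR-30e and miR-30d overlapped in share, although their 3p levels did not. For miR-30c with both of its 3p strands the share was 4.3% ± 0.794.

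**Figure D1:**
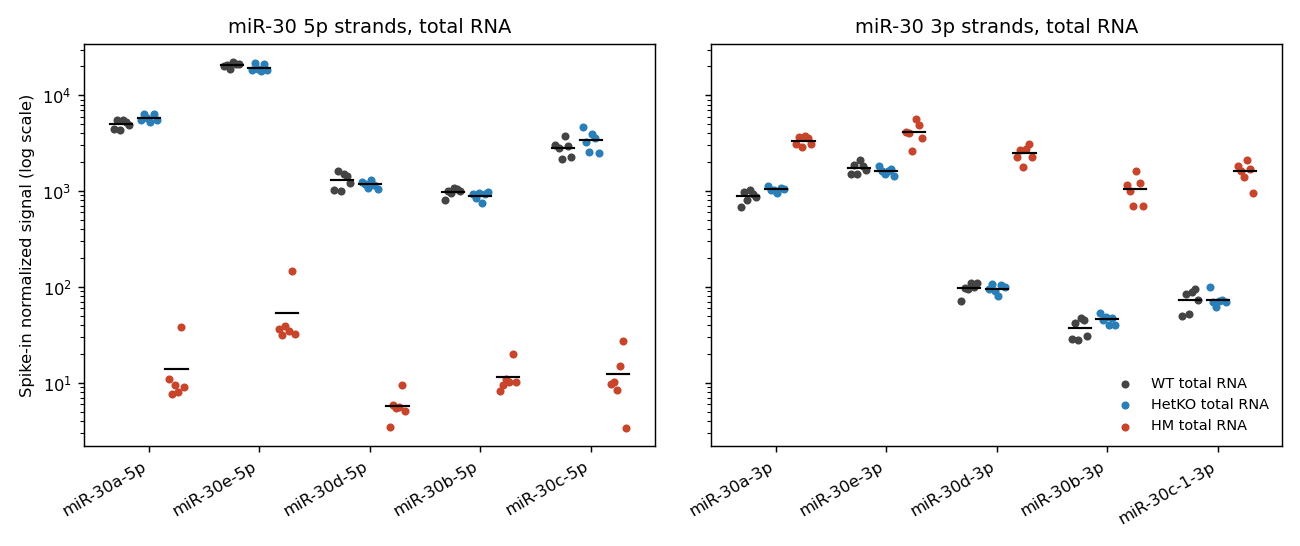
Spike-in normalized signal of the 5p strands (left) and 3p strands (right) of the miR-30 family on a log scale, with a point for each of the 6 total RNA libraries of WT, HetKO and HM and a bar for the mean. The 5p strands of HM lie between 3.36 and 148 and below every WT and HetKO library, and the 3p strands of HM lie above them, with the 5 strands closer to each other than in WT.

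The comparison of HM with WT asks what the RNase IIIb change does to each arm. All 5 members of the 5p arm were lower in HM, and 98.9% of the 180 5p-miRNAs tested were called lower (limma, Benjamini-Hochberg adjusted p under 0.05), so this is the behaviour of the arm as a whole. miR-30e-5p, the most abundant member, had a lowest, median and highest signal of 18836, 20719 and 22090 in WT and of 31.8, 35.3 and 148 in HM. It fell by 8.84 on the log2(signal + 1) scale (SE 0.313, limma adjusted p = 3.76e-13). miR-30a-5p went from 4325, 5080 and 5533 in WT to 7.63, 9.22 and 37.8 in HM and fell by 8.64 (SE 0.306, limma adjusted p = 3.76e-13). In both strands the highest HM value was that of replicate 5, and the ranges of the genotypes were far apart. For all 5 members of the 5p arm no HM library overlapped a WT library, as for 98.3% of the 5p-miRNAs.

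The changes of the other 5p members were smaller on this scale. miR-30c-5p fell by 7.93 (SE 0.34), miR-30d-5p fell by 7.61 (SE 0.199) and miR-30b-5p fell by 6.35 (SE 0.182), with limma adjusted p-values from 3.44e-14 to 4.02e-12. The median change of all 5p-miRNAs was -6.13. What remained of the mean WT level in HM was 0.276% for miR-30a-5p, 0.259% for miR-30e-5p, 0.434% for miR-30c-5p, 0.442% for miR-30d-5p and 1.17% for miR-30b-5p. Without replicate 5 of HM these were 0.18%, 0.167%, 0.327%, 0.387% and 0.998%. miR-30b-5p kept the largest part of its WT level with and without that library. The residual signal rested on 12 to 442 reads per library and strand.

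The 3p members were all higher in HM than in WT, 5 of 5, where 43.3% of the 217 3p-miRNAs tested were called higher. No HM library overlapped a WT library for any of the 5, which held for 32.7% of the 3p-miRNAs. Each of them had a WT mean above the filter of 10, so none entered the test through its HM level. The 105 other passenger 3p-miRNAs, 3p strands that make up under 30% of an abundant duplex in WT, are the like class: 73 were tested, 57 were called higher and 8 lower, with a median change of 2.07 and quartiles of 0.71 and 2.97. The filter takes the mean of both groups, so strands low in WT could enter this class and the 3p background through HM. How many did so was not counted.

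By fold change the rare passengers rose most. miR-30b-3p had a lowest, median and highest signal of 27.9, 36.4 and 47.5 in WT, of 39.6, 46.6 and 53.3 in HetKO and of 695, 1084 and 1602 in HM. It rose by 4.77 on the log2 scale (SE 0.227, limma adjusted p = 1.48e-11), a ratio of means of 28.6. miR-30d-3p went from 71.3, 98.4 and 111 in WT to 1797, 2484 and 3093 in HM and rose by 4.65 (SE 0.162, limma adjusted p = 3.25e-13), a ratio of 25.5. miR-30c-1-3p went from 49.5, 78.9 and 95.8 to 950, 1665 and 2116 and rose by 4.42 (SE 0.221, limma adjusted p = 2.74e-11), a ratio of 21.7. For each of these strands even the lowest HM library lay far above the highest WT library. The 3p strand of the second miR-30c hairpin, miR-30c-2-3p, rose by 4.11 (SE 0.206), from a mean of 51.5 to 929.

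The well used 3p strands rose less by fold change. miR-30a-3p had 679, 900.6 and 1038 in WT, 962, 1044 and 1140 in HetKO and 2884, 3355 and 3713 in HM, a rise of 1.93 (SE 0.139, limma adjusted p = 3.11e-09) and a ratio of means of 3.78. miR-30e-3p had 1500, 1744 and 2125 in WT, 1453, 1610.0 and 1823 in HetKO and 2617, 4110 and 5602 in HM, a rise of 1.22 (SE 0.181, limma adjusted p = 1.52e-05) and a ratio of 2.38. Its HM libraries spread widely, but the lowest of them was still above every WT and HetKO library. Against HetKO, with which HM shares the lost allele, the 3p strands rose by 4.45 (miR-30b-3p), 4.66 (miR-30d-3p), 4.40 (miR-30c-1-3p), 1.66 (miR-30a-3p) and 1.33 (miR-30e-3p), and all were called. In that comparison 54.3% of 210 3p-miRNAs were called higher, and all 5 of the 5p members were called lower, as were 98.2% of 167 5p-miRNAs. No member of the 3p arm overlapped between HM and HetKO libraries, which held for 38.6% of the 3p-miRNAs.

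These sizes depend on the scale more than the calls do. Over all miRNAs the median change from WT to HM was -1.10 on the spike-in scale, 0.25 after each library was rescaled to the same miRNA total, and -0.62 after centring on 3p-miRNAs that are guides. The split of the 3p-miRNAs moved with it, from 94 higher and 61 lower to 179 and 12 after rescaling and to 123 and 31 after centring. The rise of miR-30b-3p became 5.87 and 5.25 under those scales and that of miR-30e-3p 2.33 and 1.71, with all 5 of the 3p members called higher under each.

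Whether rare and well used 3p strands of the family changed unequally was tested by their ratio within a library. In that ratio the scaling nearly cancels, and HM was set against HetKO, since WT set the classes. The mean 3p levels of HetKO were 0.926 to 1.24 times those of WT, so the strands rare in WT were rare in HetKO too. The test is thus not free of the classes, as a like gain in signal gives a larger fold from a lower start. The 6 ratios combine 5 strands of the same libraries and are not independent. All 6 ratios rose. The log2 ratio of miR-30b-3p to miR-30a-3p lay between -4.68 and -4.37 in HetKO and between -2.14 and -1.21 in HM, a difference of 2.78 (SE 0.156). That of miR-30d-3p to miR-30e-3p lay between -4.29 and -3.86 in HetKO and between -1.02 and -0.54 in HM, a difference of 3.33 (SE 0.104). The other 4 differences ran from 2.74 to 3.12. Each ratio had a two-sided exact permutation p of 0.00216, the smallest that 6 against 6 libraries can give, and adjustment over the 6 ratios leaves it at 0.00216. The 2 groups did not overlap in any of them. As fold changes, the ratio of a rare strand to a well used one was from 6.66 to 10.1 times as high in HM as in HetKO. This compares fold changes and not amounts of signal gained, which were not larger for the rare strands. From WT to HM the mean went from 881 to 3334 for miR-30a-3p and from 1746 to 4157 for miR-30e-3p. It went from 97.3 to 2481 for miR-30d-3p, from 73.9 to 1607 for miR-30c-1-3p and from 37.1 to 1062 for miR-30b-3p. With the means of replicate pairs as samples the differences were the same, but 3 against 3 cannot give a p under 0.1.

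**Figure D2:**
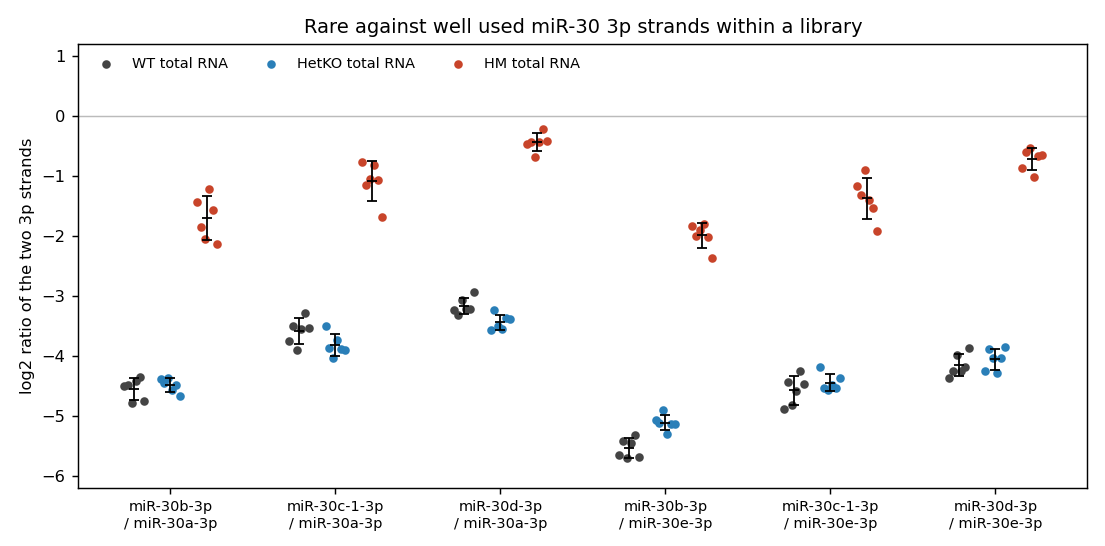
The log2 ratio of each rare miR-30 3p strand to each well used one within a total RNA library, with 6 points for WT, HetKO and HM and the mean ± SD. HetKO lies between -5.30 and -3.24 over the pairs and HM between -2.37 and -0.21, and for every pair HM lies above HetKO and WT.

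The 3p levels therefore lay closer together in HM. The highest of the 5 mean levels was 47.0 times the lowest in WT, 35.2 times in HetKO and 3.91 times in HM. The order of the means was the same in the 3 genotypes, from miR-30e-3p down to miR-30b-3p. In HM the range of every strand over libraries overlapped that of its neighbour in that order. Within each HM library, however, miR-30a-3p stood above miR-30d-3p, miR-30d-3p above miR-30c-1-3p, and miR-30c-1-3p above miR-30b-3p. Only miR-30e-3p and miR-30a-3p changed places, in replicate 3 of HM (2617 against 2884).

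The level that a 3p strand reached in HM was set beside the WT level of the 5p strand from the same hairpin. Both are read levels of different sequences, whose capture in the libraries was not calibrated, so the percentages are not ratios of molecules. For miR-30b these were 1062 ± 345 and 980.1 ± 95.3, or 108%, and for miR-30c, with both 3p strands summed, 2536 ± 656 and 2830 ± 575, or 89.6% (SD, n = 6), and in both hairpins the libraries overlapped. miR-30d-3p reached 2481 ± 456 in HM, 190% of the 1306 ± 261 of miR-30d-5p in WT, with no overlap. miR-30a-3p reached 66.7% of miR-30a-5p, and miR-30e-3p, the highest 3p strand in HM, 20.1% of miR-30e-5p. Over the family, the 5 members of the 5p arm summed to 30810 ± 2278 in WT and 96.8 ± 71.4 in HM, and those of the 3p arm to 2835 ± 402 in WT and 12640 ± 2376 in HM. As a part of the summed signal of the names with values, the 3p sum in HM was 2.58% ± 0.407. The 5p sum in WT was 2.92% ± 0.0883 of it.

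**Figure D3:**
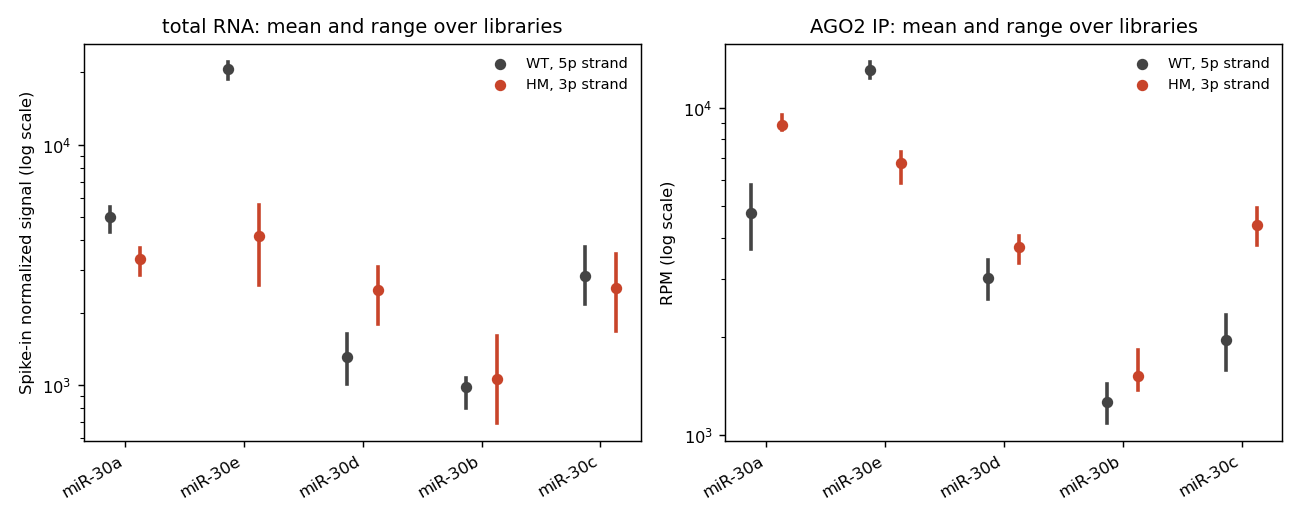
Mean and range over libraries of the WT level of each miR-30 5p strand and of the HM level of the 3p strand from the same hairpin, in total RNA (spike-in normalized signal) and AGO2 IP (RPM), on log scales; for miR-30c both 3p strands are summed. In total RNA the ranges overlap for miR-30b and miR-30c, miR-30d-3p lies above its partner, and miR-30a-3p and miR-30e-3p lie below theirs.

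The hairpins turned from 5p to 3p as a whole. The 3p share in HM total RNA was 99.6% ± 0.318 for miR-30a, 98.7% ± 0.868 for miR-30e, 99.8% ± 0.0596 for miR-30d, 98.9% ± 0.435 for miR-30b and 99.3% ± 0.437 for miR-30c-1 (SD, n = 6). The log2 ratio of 3p to 5p rose by 10.6 (miR-30a), 11.1 (miR-30b), 12.4 (miR-30c-1), 12.3 (miR-30d) and 10.1 (miR-30e) against WT, with SE from 0.206 to 0.307 and limma adjusted p-values from 5.91e-19 to 4.31e-16. All 5 hairpins were called higher, as were 87.3% of the 268 hairpins tested, whose median change was 5.44.

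**Figure D4:**
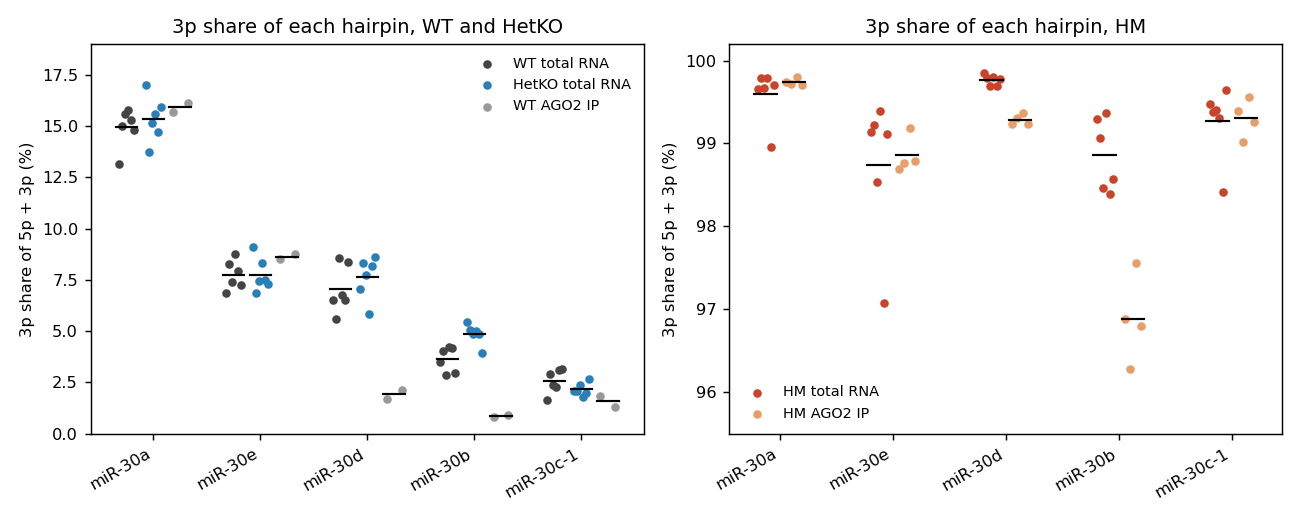
Share of 3p reads in each miR-30 hairpin by library, in percent of 5p plus 3p, with WT and HetKO total RNA and WT AGO2 IP on the left (axis from 0) and HM total RNA and AGO2 IP on the right (axis cut to the top few percent), and a bar for the mean of each group. WT and HetKO shares are at most 17.0%, HM shares are at least 96.3%, and the AGO2 IP shares of miR-30d and miR-30b lie below those of total RNA.

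HetKO against WT controls for the lost allele. None of the 10 members was called by limma, where 27.3% of 433 miRNAs were called, and 2 of them, miR-30a-3p and miR-30a-5p, had an unadjusted p under 0.05. The changes ran from -0.13 (miR-30d-5p) to 0.32 (miR-30b-3p) on the log2 scale. By limma-voom on recovered reads the count was also 0. Under other scales members were called higher in HetKO, 3 after rescaling to the same miRNA total (miR-30a-5p, miR-30a-3p and miR-30b-3p, by 0.32 to 0.43) and 6 after centring on guide 3p-miRNAs (by 0.25 to 0.68). The arm ratio does not depend on the scale, and 0 of the 5 hairpins were called by it (4.93% of 284 hairpins were), with miR-30b nearest at 0.45 (SE 0.135, limma adjusted p = 0.0927). The libraries of miR-30b-3p overlapped between WT and HetKO.

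AGO2 IP asks which strands are bound by the protein that carries out silencing. There, too, all 5 of the 5p members were lower in HM than in WT (97.6% of 166 5p-miRNAs were), and all 5 of the 3p members were higher (83.9% of 285 3p-miRNAs were, and 139 of the 285 after centring on guide 3p-miRNAs, under which the 5 members were still called). RPM is relative to all miRNAs of a library, so the median over all miRNAs was itself 1.13 higher in HM. miR-30b-3p had 11.5 and 10.1 RPM in the WT libraries and from 1377 to 1825 RPM in the 4 HM libraries, a rise of 7.0 (SE 0.194, limma adjusted p = 5.88e-07). miR-30c-1-3p had 29.7 and 30.3 RPM in WT and from 2626 to 3709 in HM, a rise of 6.67 (SE 0.206). miR-30d-3p had 57.0 and 59.2 RPM in WT and from 3364 to 4059 in HM, a rise of 5.99 (SE 0.172). The well used strands rose by 3.33 (SE 0.216, miR-30a-3p, from 712 and 1079 RPM in WT to between 8536 and 9502 in HM) and by 2.45 (SE 0.18, miR-30e-3p, from 1142 and 1319 to between 5878 and 7319). No HM library of these 5 strands overlapped a WT library, which held for 85.6% of the 3p-miRNAs. Of the other passenger 3p-miRNAs, 88 were tested in AGO2 IP, and 84 were called higher and 0 lower. Strands low in WT could enter here through HM, as in total RNA. Their median change was 3.75, with quartiles of 2.70 and 4.73, so the rises of miR-30a-3p and miR-30e-3p lay below that median. The log2 ratio of 3p to 5p rose by 10.9 (miR-30a), 11.7 (miR-30b), 13.1 (miR-30c-1), 12.7 (miR-30d) and 9.84 (miR-30e) in AGO2 IP, where 95.1% of 309 hairpins were called higher.

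The order among AGO2-bound 3p strands was not that of total RNA in HM. miR-30a-3p stood first in AGO2 IP at 8862 ± 448 RPM (SD, n = 4), above miR-30e-3p at 6754 ± 618, without overlap, whereas the same strands overlapped in HM total RNA with miR-30e-3p the higher by its mean. Of the WT level of its 5p partner in AGO2 IP, the HM 3p strand reached 186% for miR-30a, 224% for miR-30c with both 3p strands, 125% for miR-30d, 120% for miR-30b and 51.8% for miR-30e. These percentages compare RPM, a part of each library's miRNA total, so they do not give amounts bound to AGO2. In total RNA, on the spike-in scale, the percentages in the same order were 66.7%, 89.6%, 190%, 108% and 20.1%. In RPM, the 5 members of the 3p arm summed to 24096 ± 571 in HM (n = 4). Those of the 5p arm summed to 24013 ± 747 in WT (n = 2). Of the summed RPM of the names with values these were 2.47% ± 0.0596 and 2.9% ± 0.0648. That sum was 822326 and 832586 RPM in the WT libraries and 975456 to 977911 in those of HM. The 2 percentages thus have unlike bases.

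Within a genotype, the ratio of the arms in AGO2 IP against that in total RNA asks whether AGO2 holds the strands of a hairpin in the proportion in which the cell contains them. In WT the 3p strand was lower relative to the 5p strand in AGO2 IP than in total RNA for miR-30b, by -2.02 (SE 0.205, limma adjusted p = 7.39e-05), and for miR-30d, by -1.94 (SE 0.211, limma adjusted p = 0.000108). The 3p share of miR-30b was between 2.87% and 4.24% in WT total RNA and 0.795% and 0.914% in the WT AGO2 IP libraries, and that of miR-30d was between 5.61% and 8.56% against 1.7% and 2.14%. The shift of miR-30c-1 was -0.69 (SE 0.282, limma adjusted p = 0.0811), and those of miR-30a and miR-30e were 0.11 (SE 0.143) and 0.17 (SE 0.153), none of them called. Without replicate 1 of WT total RNA, miR-30c-1 was called too, at -0.82 (limma adjusted p = 0.0186). Among the members' hairpins, the 3 with rare 3p strands thus had shifts below 0 in WT and the 2 with well used ones above 0. The split did not extend to miR-30c-2, whose 3p strand was also rare. Its shift was 0.31 (SE 0.338), and it was not called. Both miR-30c ratios use the same miR-30c-5p reads. Over all 292 hairpins, 18.8% were called lower and 23.3% higher.

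The same hairpins were called in HM. There the shift was -1.46 for miR-30b (SE 0.306, limma adjusted p = 0.000631) and -1.47 for miR-30d (SE 0.232, limma adjusted p = 6.07e-05), in a background where 11.9% of 268 hairpins were called lower, 64.6% higher, and the median shift was 1.33. miR-30a (0.49, SE 0.375), miR-30c-1 (0.06, SE 0.344) and miR-30e (-0.05, SE 0.384) were not called. The 5p side of these ratios rested on 12 to 59 reads per library for miR-30b and miR-30d in HM total RNA and on 112 to 280 in AGO2 IP. Under the alternative settings both hairpins stayed called in HM, but the sizes moved. The shift ranged from -1.70 to -0.89 for miR-30b and from -1.65 to -0.62 for miR-30d. With the replicate number as a block, 1 of the 2 WT calls was lost (miR-30d, -1.72, limma adjusted p = 0.0577), where only 2 numbers occur in both WT assays. Whether miR-30b and miR-30d differed from the other hairpins was not tested.

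The strands behind these shifts were placed by their AGO2 IP level over total RNA, centred on the median of the 403 miRNAs whose mean reached 10 in both WT assays. On the log2 scale miR-30d-5p was at 1.15 (88.8th percentile) and miR-30b-5p at 0.31 (64.8th), and miR-30d-3p was at -0.80 (14.6th) and miR-30b-3p at -1.84 (1.74th). miR-30a-5p and miR-30a-3p were near the median at -0.13 and -0.03, miR-30e-5p and miR-30e-3p were both below it at -0.72 and -0.56, and miR-30c-1-3p was at -1.36. In HM, centred on 270 miRNAs, all 5 of the 3p members lay below the median, from -0.37 (miR-30a-3p) to -1.27 (miR-30b-3p). These placings rest on means over 2 and 6 libraries in WT and 4 and 6 in HM and carry no test.

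**Figure D5:**
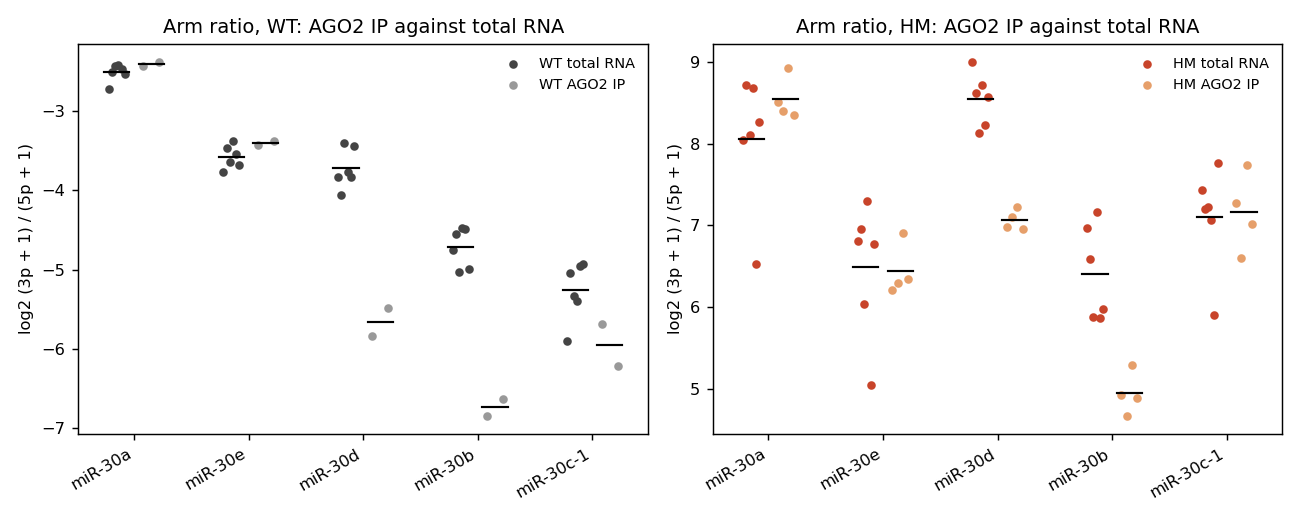
The log2 ratio of 3p to 5p (value + 1) of each miR-30 hairpin in every total RNA and AGO2 IP library of WT (left) and HM (right), with a bar for the mean. For miR-30d and miR-30b the AGO2 IP libraries lie below all total RNA libraries in both genotypes, whereas for miR-30a, miR-30e and miR-30c-1 the libraries of the 2 assays overlap.

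In HEK293T cells the question was put from the other side, with Dicer whose RNase IIIa domain is changed (D1320A). The values are a score, reads multiplied by an unstated factor, and there is 1 library per condition with no replicate check, so shares within a library are given with 95% Wilson intervals for counting error only. The 3p share of the family reads was 11.1% (10.8 to 11.5) with WT Dicer and 2.32% (1.78 to 3.03) with D1320A. All 3p-miRNAs together made up 35.9% and 2.84% of the arm reads in these libraries. By hairpin, the 3p share went from 23.3% (22.1 to 24.4) to 7.52% (4.75 to 11.7) for miR-30a, from 10.7% (10.3 to 11.1) to 2.45% (1.75 to 3.43) for miR-30e and from 11.9% (10.98 to 12.9) to 0.51% (0.0901 to 2.83) for miR-30d, with intervals that did not overlap. For miR-30c with both 3p strands it was 3.63% (3.11 to 4.23) and 1.27% (0.348 to 4.5), which overlap. miR-30b-3p had 16 of 2499 reads with WT Dicer, or 0.64%, and 0 of 355 with D1320A, which allows a share of up to 0.845%, so a difference was not detectable at this depth.

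By read number, the rare and well used 3p strands of the family kept their ranks in the human line with WT Dicer. There miR-30e-3p had 2288 reads, miR-30a-3p 1256, miR-30d-3p 506, miR-30c-1-3p 102 and miR-30b-3p 16. By 3p share they did not divide in this way, since miR-30d (11.9%) was not below miR-30e (10.7%). With D1320A the score of the 5p strands was from 3.91% (miR-30c-5p) to 14.9% (miR-30b-5p) of that with WT Dicer, and that of the 3p strands with more than 3 reads was 1.51% (miR-30e-3p) and 1.41% (miR-30a-3p). Over all miRNAs with at least 100 reads with WT Dicer, the median was 16.1% for 97 5p-miRNAs and 0.783% for 84 3p-miRNAs. Set to the same library total instead, miR-30b-5p was at 113% of its level with WT Dicer and the other 5p members between 29.7% and 54.3%. The D1320A library was small, and miR-30d-3p was seen there by 1 read and miR-30c-1-3p by 2.

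The miRNAs most like a well used and a rare 3p strand, miR-30a-3p and miR-30b-3p, in their pattern over the 18 total RNA libraries were 3p strands of other families. Among 407 other miRNAs, miR-30a-3p was most like miR-125a-3p (Pearson r = 0.988), miR-450a-1-3p (0.985) and miR-26a-2-3p (0.984), and miR-30b-3p was most like miR-26a-2-3p (0.995), miR-195a-3p (0.995) and miR-15b-3p (0.994). The points of these correlations share the genotype, depth and spike-in factor of their library. Among the 3p members themselves r ran from 0.948 (miR-30a-3p with miR-30e-3p) to 0.995 (miR-30b-3p with miR-30c-1-3p). The 4 pairs with miR-30e-3p had the lowest r of the 10, up to 0.961 with miR-30b-3p.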

How the data were processed

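Per the labels, small RNA libraries were made with the QIAseq kit, and the authors counted miRNAs with QuagmiR; versions, the genome build and the miRNA release are not given in the sources used here. For total RNA the authors deposited a spike-in normalized signal, for AGO2 IP the authors deposited RPM of the miRNA total, and the HEK293T values they deposited have the unit score here, as each is a read number times 1 unstated factor. The floors of 0.01 (P19) and 1 (HEK293T) were read as 0. Of 1413 P19 names 17 were blank. Reads were recovered by division, since 20775 of 20775 nonzero P19 values fell within 0.01 of a whole multiple of their library's step. Any pair of replicates differed by more than sampling noise.

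Strands were compared with limma 3.58.1 in R 4.3.3 on log2(value + 1), using miRNAs whose mean over both groups reached 10, and hairpins on the difference of the log2 arms, with Benjamini-Hochberg adjustment over all and calls under 0.05. The 2 strands of miR-3070 (chromosome 12) were left out of the fits. For ratios of 3p strands the exact permutation test was two-sided. Python 3.11.15, scipy 1.17.1 and RNAfold 2.7.2 were used. The steps were tested on simulated data. All 10 members are named, with miR-30c-2-3p, the human rows and the 3 miRNAs most alike to miR-30a-3p and to miR-30b-3p. Members, classes and lists were chosen with earlier results of these data known. Alternatives were the pseudocount, the filter, 2 scalings, replicate pairs, the replicate block and leaving out each library; limma-voom on recovered reads was chosen after seeing the data. Intervals and limits cover counting error only. The labels call the replicates biological; as nothing more says how they were separated, p-values measure the spread between these samples.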

Additional observations from a re-analysis of the deposited data

Results flagged for a closer look

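Over 60 sets of 4 or 6 libraries, each a member's level or a hairpin's 3p share in 1 group, 8 held a library far from the others by Dixon's criterion, where chance gives about 3. Of these, 6 were replicate 5 of HM. It held 37.8 for miR-30a-5p against 7.63 to 10.9 in the other HM libraries, 19.7 for miR-30b-5p against 8.29 to 10.9, and 148 for miR-30e-5p against 31.8 to 39.0. In the same library the 3p share was 99.0% for miR-30a, 98.4% for miR-30c-1 and 97.1% for miR-30e, against at least 99.7%, 99.3% and 98.5% in the others. This library also held the highest summed 5p signal of HM over all 5p-miRNAs, 9403, and its part in the residual 5p levels is given by the values with and without it.

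The remaining 2 were miR-30b-3p in replicate 3 of HM AGO2 IP, at 1825 RPM against 1377 to 1446 in the others, and miR-30c-1-3p in replicate 1 of HetKO, at 99.6 against 62.2 to 72.3.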

How the results depend on the processing

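The calls on HM held: in the comparisons of HM with WT, with HetKO and with WT in AGO2 IP, all 5p members stayed lower and all 3p members higher under every alternative and without any 1 library, by limma (with 1 WT AGO2 IP library left, it is assumed to vary like those of HM). The 6 ratios of rare to well used 3p strands kept values from 2.55 to 3.35, but with the means of replicate pairs as samples (2.78, 3.12, 2.74, 3.07, 3.00 and 3.33) the smallest possible p is 0.1. Without any 1 library they ranged from 2.67 to 3.39.

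HetKO against WT depended on the scale. The count of members called was 3 after rescaling and 6 after centring, against 0, and the change of sign reached miR-30d-3p (0.10), miR-30e-5p (0.0042) and miR-30e-3p (0.0014) after rescaling, and miR-30b-5p (0.23), miR-30d-5p (0.22), miR-30d-3p (0.34), miR-30e-5p (0.25) and miR-30e-3p (0.25) after centring. By arm ratio 1 hairpin, miR-30b, was called with a pseudocount of 10. Without single libraries the sign changed for miR-30c-1-3p (-0.0784 to 0.11), miR-30d-3p (-0.0939 to 0.0389) and the arm ratio of miR-30e (-0.0543 to 0.0371), all near 0.

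In AGO2 IP against total RNA, 2 WT hairpins were called, and 1 with the replicate block; without replicate 1 of WT total RNA, miR-30c-1 was called as well (-0.82). In HM the arm ratio of miR-30c-1 turned to -0.0215 with a pseudocount of 0.1 and to -0.0725 with the replicate block, that of miR-30e to 0.0773 with a pseudocount of 10, and without single libraries they ranged from -0.18 to 0.25 and from -0.34 to 0.12. The causes were not tested. With a pseudocount of 10, miR-30a was called there too (0.84).

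Same-numbered libraries of different genotypes shared only a number: their deviations correlated by -0.46 to 0.39 over the 3 pairs of genotypes, and at most 2 of 6 libraries matched their own number best. The replicate block changed no other call, and the ratios then had p = 0.0312 in an exact sign-flip test, the smallest it can give. The planned count-model tests on recovered reads were not run, and limma-voom was run on those reads in their place. Residual 5p strands in HM rested on few reads, and AGO2 IP of WT on 2 libraries.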
